A study of Arabidopsis thaliana with 16 samples.

Results

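Seedlings of Arabidopsis thaliana (ecotype Columbia, 14-day-old) that overexpress the rice gene OsGRX8 (called GRX) and wild-type seedlings (WT) were kept for 3 h in 200 mM NaCl, in 25 µM methyl viologen (MV), in 100 µM indole-3-acetic acid (IAA, an auxin) or in water. Each of the 8 groups was measured on 2 ATH1 arrays, which the design text calls biological replicates. The set described here holds 72 of the 22746 probe sets tested. It is the group of transcripts that were strongly higher under NaCl than in water and stayed near their water level under MV and IAA. Members were chosen from group means of the deposited log2 values. NaCl minus water had to be at least 2 (4-fold) in both lines, MV minus water and IAA minus water had to lie between -0.6 and 0.6 in both lines, and at least 1 of the 8 group means had to reach 4. The responses to NaCl, MV and IAA of these members therefore chose them and are given as a description, with no test. "Only" refers to the 3 treatments applied here.

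The product of OsGRX8 is a glutaredoxin of the CC type, a class of small thiol oxidoreductases found in land plants. Neither the promoter that drives the transgene nor the number of insertion lines is given in the labels, and the level of the rice transcript was not analysed here. RNA came from whole seedlings, so that a change in the number of cells of a type and a change in RNA per cell cannot be told apart for any value below.

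As background, a high NaCl concentration lowers the water potential around the roots within minutes, and sodium then enters the cells. Plants answer with the hormone abscisic acid (ABA), whose receptors inhibit clade A PP2C phosphatases and so release SnRK-type kinases that phosphorylate bZIP transcription factors. Late embryogenesis abundant (LEA) proteins, osmolyte enzymes and transporters are among the known targets. MV diverts electrons of photosystem I to oxygen and so produces superoxide in the chloroplast, while IAA acts through the degradation of Aux/IAA repressors.

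Array medians lay between 2.94 and 3.20 on the log2 scale, and the correlation between the 2 arrays of a group ranged from 0.966 (IAA, WT) to 0.994 (water, GRX). The second IAA array of each line stood apart in the control for RNA integrity. Its actin 3′ signal exceeded the 5′ signal by 4.43 log2 units in GRX and by 6.10 in WT, against 1.13 to 2.57 on the other arrays. Without these 2 arrays the rule found 81 probe sets, of which 69 were among the 72. The absent-transcript control trp (3 probe sets) read between 0.68 and 1.21, which marks the floor of the scale.

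Across the 72 members, NaCl minus water had a median of 2.58 in GRX and 2.65 in WT, and it ran from 2.01 to 4.69 in GRX and from 2.01 to 4.50 in WT. Averaged over the lines, the median was 2.61 (6.10-fold) and the highest was 4.56 (23.6-fold). These are folds of the deposited values, and where the water arrays lay near the floor, as in the highest member, the change in the transcript may be larger. The mean was below 3 in 49 members, from 3 to 4 in 18, and at least 4 in 5. Over all 22746 probe sets the medians were 0.02 in GRX and -0.02 in WT. All 72 passed the test for higher values under NaCl in each line (limma, Benjamini-Hochberg adjusted p below 0.05). That count follows from the rule and nothing is read from it, and 7.94% of all probe sets passed in GRX and 7.61% in WT.

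All 4 NaCl arrays lay above all 12 other arrays in 72 of 72 members, which the rule largely fixes, and in 8.80% of all probe sets. The gap between the lowest NaCl array and the highest of the other 12 was 0.78 at the least, 1.85 at the median and 3.72 at the most. Replicate arrays of the members had a pooled SD of 0.38 under NaCl in GRX and 0.40 in WT, against 0.21 in water in GRX and 0.30 in WT. Under MV this SD was 0.29 in GRX and 0.32 in WT, and under IAA 0.29 in GRX and 0.38 in WT. Over all probe sets the SD was 0.25 under NaCl in GRX and 0.22 in WT, against 0.18 in water in GRX and 0.21 in WT. It was 0.24 under MV in GRX and 0.26 in WT, and 0.27 under IAA in GRX and 0.42 in WT. Values of different probe sets depend on their probes as well as on the transcript, so that the levels that follow describe the arrays and do not rank the genes. Their level averaged over the lines had a median of 5.23 under NaCl (range 4.03 to 9.93), against 2.32 in water (range 0.98 to 6.82). Over all probe sets the medians were 3.10 under NaCl and 3.07 in water. In water, 25 members lay below 2, 34 between 2 and 4, and 13 at 4 or more. In 56 of 72 the level of 4 was reached under NaCl alone.

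**Figure D1:**
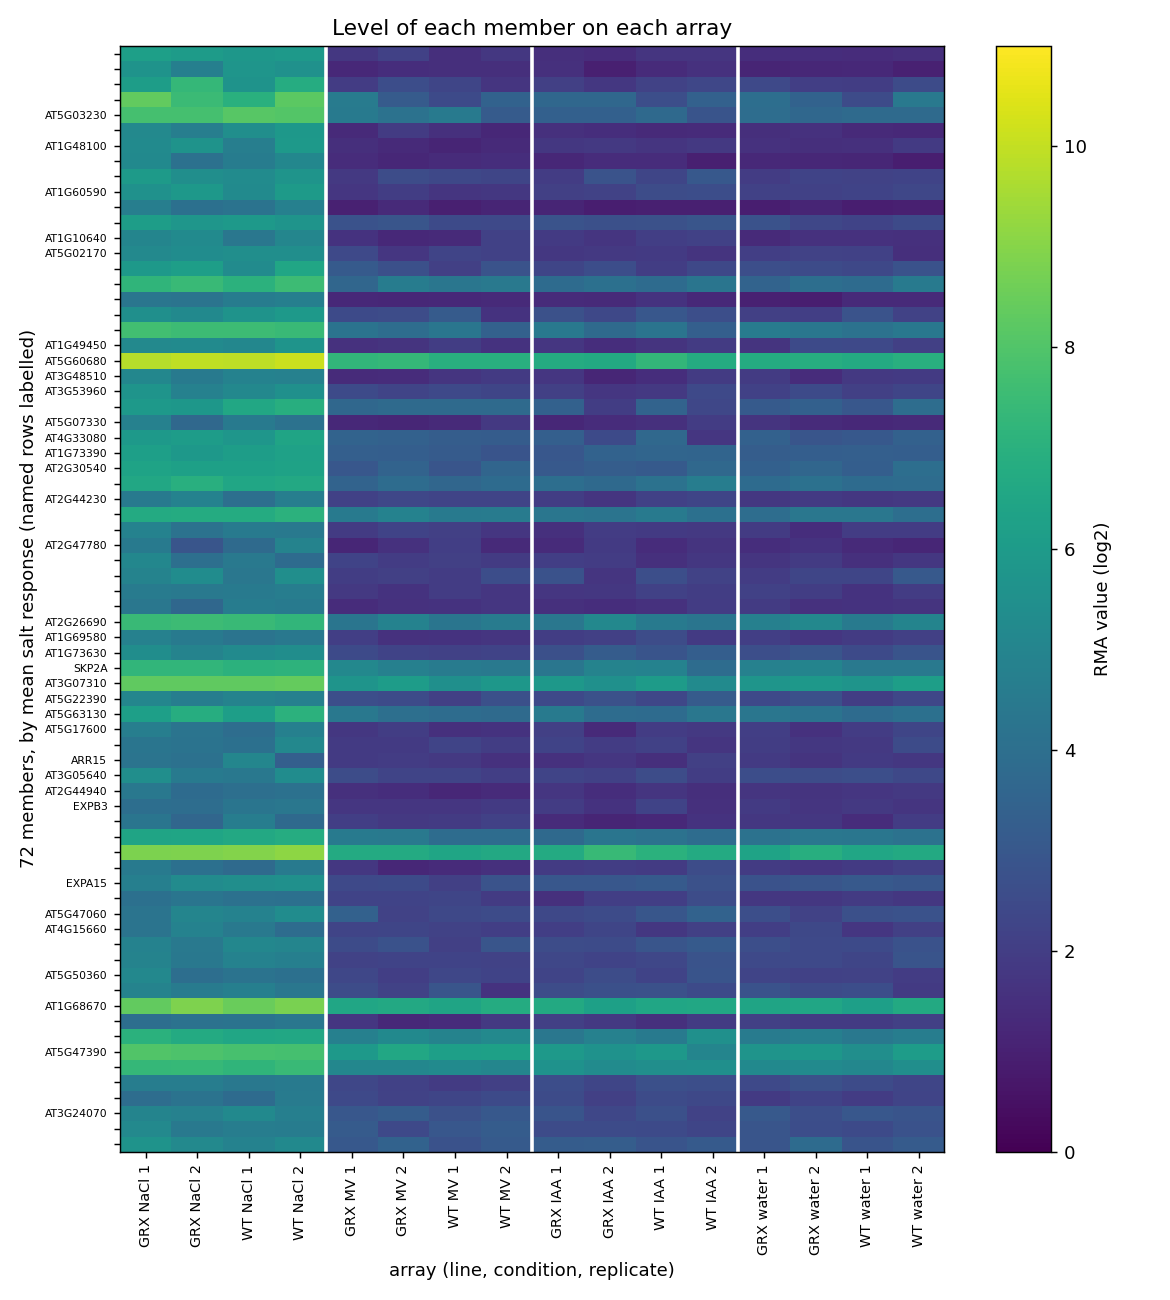
Deposited RMA values (log2, colour) of the 72 members, 1 row each and ordered by the mean salt response, on the 16 arrays, which are ordered NaCl, MV, IAA and water with GRX left of WT; rows without a label have no gene name in the annotation used. The 4 NaCl arrays are brighter than the other 12 in every row, and most rows are dark (low) without salt.

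The platform annotation gave exactly 1 gene for 34 of the 72 members (47.2%), against 59.4% of all probe sets, and no gene for 38. Among the other 124 probe sets that met the salt and level criteria but not the windows, the share with 1 gene was 38.7%. Only 4 of the 34 carry a gene symbol, the others a locus code. Roles stated for locus codes below are those of their protein families, from general knowledge and not from the annotation. How many other genes of each family were on the array, and how they responded, is not given. The number of members in a family is therefore a description. The 34 lie on chromosomes 1 (10 genes), 2 (6), 3 (5), 4 (3) and 5 (10). The medians of NaCl minus water were 2.54 in GRX and 2.65 in WT for the named members, and 2.61 in GRX and 2.63 in WT for the unnamed. Of the 10 largest mean responses, 7 belonged to probe sets with no gene name.

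The member with the largest mean response, 261431_at, has no gene name. It read 6.23 and 6.05 under NaCl in GRX and 5.84 and 5.91 in WT, 1.79 and 2.12 under MV in GRX and 1.5 and 1.78 in WT, 1.47 and 1.42 under IAA in GRX and 1.71 and 1.70 in WT, and 1.44 and 1.45 in water in GRX and 1.38 and 1.5 in WT. Each of the 12 arrays without salt stayed at or below 2.12, whereas the 4 NaCl arrays lay between 5.84 and 6.23. Probe set 245627_at followed, with 5.67 and 4.75 under NaCl in GRX and 5.72 and 5.55 in WT, against 1.12 and 1.21 in water in GRX and 1.26 and 1.01 in WT. Its 2 NaCl arrays were farther apart in GRX than in WT. These and the other unnamed probe sets given below were picked out after their values were seen.

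The 4 named members with the largest mean responses were the S40 family gene AT5G03230 and 3 genes of the polygalacturonase family. Polygalacturonase family enzymes cut the pectin backbone of the wall, and the 3 among the members had NaCl minus water of 3.60 to 3.93 in GRX and 3.16 to 3.63 in WT. AT1G48100 read 5.25 and 5.66 under NaCl in GRX and 4.70 and 5.97 in WT, 1.48 and 1.31 under MV in GRX and 1.15 and 1.30 in WT, 1.77 and 1.81 under IAA in GRX and 1.71 and 1.81 in WT, and 1.56 and 1.48 in water in GRX and 1.51 and 1.89 in WT. The salt response was 3.93 ± 0.31 in GRX and 3.63 ± 0.31 in WT (difference ± SE of the fit, 2 arrays a group). AT1G60590 read 5.58 and 5.87 under NaCl in GRX and 5.25 and 5.98 under NaCl in WT, against 2.14 and 2.11 in water in GRX and 2.21 and 2.35 in water in WT, and its 8 MV and IAA arrays ran from 1.71 to 2.61. AT1G10640 read 5.02 and 5.27 under NaCl in GRX and 4.35 and 5.05 under NaCl in WT, against 1.32 and 1.59 in water in GRX and 1.55 and 1.53 in water in WT. In all 3 genes the first WT array under NaCl was the lowest of the 4 NaCl arrays, and no NaCl array overlapped the other 12.

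Expansins loosen the wall without cutting it, and an alpha- and a beta-expansin were members. EXPA15 read 4.75 and 5.30 under NaCl in GRX and 5.42 and 5.51 under NaCl in WT, against 2.75 and 2.92 in water in GRX and 3.08 and 2.96 in water in WT. Its MV arrays were 2.45 and 2.48 in GRX and 2.08 and 2.83 in WT, and its MV minus water of -0.56 in WT was among the values closest to the window's edge. EXPB3 read 3.96 and 3.92 under NaCl in GRX and 4.28 and 4.37 under NaCl in WT, against 1.85 and 1.71 in water in GRX and 1.81 and 1.69 in water in WT. The NaCl arrays of WT lay above those of GRX in both expansins. GRX minus WT under NaCl was -0.44 for EXPA15 (95% interval -0.96 to 0.08) and -0.38 for EXPB3 (-0.82 to 0.05), and both had an adjusted p of 1.0 in the limma fit.

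The S40 family, named for a gene induced in ageing barley leaves, had 2 members. AT5G60680 read 9.79 and 9.93 under NaCl in GRX and 9.92 and 10.10 under NaCl in WT, against 6.75 and 6.87 in water in GRX and 6.72 and 6.93 in water in WT. It was far above the floor without salt, and its 8 MV and IAA arrays ran from 6.69 to 7.33. AT5G03230 had the largest response of any named member, 3.94 ± 0.35 in GRX and 4.30 ± 0.35 in WT. Its arrays read 7.76 and 7.73 under NaCl in GRX and 8.13 and 8.05 under NaCl in WT, against 3.92 and 3.69 in water in GRX and 3.80 and 3.78 in water in WT, and MV and IAA arrays ran from 2.88 to 4.51. AT2G47780, of the rubber elongation factor family that coats lipid droplets, had NaCl arrays far apart, 4.49 and 2.90 under NaCl in GRX and 3.82 and 4.90 in WT, against 1.42 and 1.63 in water in GRX and 1.30 and 1.19 in WT. Its response was 2.17 ± 0.45 in GRX and 3.11 ± 0.45 in WT, and the second GRX array under NaCl was the lowest of the 4.

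Transcription factors made up 6 of the 27 members with a stated family. NaCl minus water ran from 2.16 to 3.16 in GRX and from 2.01 to 3.00 in WT. AT5G47390, listed in RefSeq as KUA1 or MYBH, is a MYB-related factor known from hypocotyl elongation and leaf cell expansion. It read 8.01 and 7.91 under NaCl in GRX and 7.80 and 7.76 under NaCl in WT, against 5.67 and 5.84 in water in GRX and 5.45 and 6.10 in water in WT, and was expressed well above the floor on every array. AT1G68670, of the GARP type that includes regulators of nitrate and phosphate responses, read 8.37 and 8.88 under NaCl in GRX and 8.50 and 8.77 under NaCl in WT, against 6.43 and 6.49 in water in GRX and 6.21 and 6.69 in water in WT. Its response, 2.16 ± 0.22 in GRX and 2.19 ± 0.22 in WT, was close to the threshold in both lines. A second GARP-type gene, AT1G69580, read 4.81 and 4.54 under NaCl in GRX and 4.23 and 4.42 under NaCl in WT, against 2.03 and 1.74 in water in GRX and 1.91 and 2.07 in water in WT.

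Members of the ABA-induced transcription repressor family, whose transcripts are known to respond to ABA, were AT3G48510 and AT5G50360. AT3G48510 read 5.10 and 4.52 under NaCl in GRX and 4.86 and 4.84 under NaCl in WT, against 1.92 and 1.38 in water in GRX and 1.82 and 1.87 in water in WT, a response of 3.16 ± 0.24 in GRX and 3.00 ± 0.24 in WT. AT5G50360 read 5.12 and 3.97 under NaCl in GRX and 4.20 and 4.07 under NaCl in WT, against 2.26 and 2.12 in water in GRX and 2.17 and 1.95 in water in WT. Its 2 GRX arrays under NaCl lay farther apart than the 2 arrays of any of the other 3 groups given. The AP2/ERF factor AT2G44940 was at 4.41 and 3.84 under NaCl in GRX and 4.03 and 4.12 in WT, against 1.72 and 1.64 in water in GRX and 1.73 and 1.84 in WT.

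The 8 members of signalling families had NaCl minus water of 2.27 to 3.15 in GRX and 2.26 to 3.14 in WT. ARR15 is a type-A response regulator, a class that dampens cytokinin signalling. It read 4.23 and 4.09 under NaCl in GRX and 5.06 and 3.32 in WT, 1.85 and 1.95 under MV in GRX and 1.82 and 1.59 in WT, 1.59 and 1.76 under IAA in GRX and 1.48 and 2.08 in WT, and 1.86 and 1.66 in water in GRX and 1.89 and 1.79 in WT. The 2 WT arrays under NaCl were the lowest and the highest of the 4, and the response was 2.40 ± 0.39 in GRX and 2.35 ± 0.39 in WT. SKP2A, an F-box protein of the ubiquitin system that binds auxin and marks cell cycle regulators for degradation, read 7.22 and 7.24 under NaCl in GRX and 7.07 and 7.11 under NaCl in WT, against 4.85 and 4.94 in water in GRX and 4.44 and 4.46 in water in WT. Its IAA arrays, 4.32 and 4.92 in GRX and 4.87 and 3.90 in WT, overlapped the water arrays.

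AT4G33080 encodes an AGC-type protein kinase and read 5.92 and 6.08 under NaCl in GRX and 5.78 and 6.44 under NaCl in WT, against 3.42 and 2.90 in water in GRX and 3.02 and 3.43 in water in WT. Its IAA arrays were 3.35 and 2.49 in GRX and 3.73 and 1.73 in WT, and the lower value in each line came from the second IAA array, the one with the high actin ratio; the part of RNA integrity in this was not tested. AT1G49450, a WD40 repeat protein, read 5.19 and 5.24 under NaCl in GRX and 5.10 and 5.70 under NaCl in WT, against 1.67 and 2.48 in water in GRX and 2.44 and 2.07 in water in WT. AT3G05640, a PP2C-type phosphatase outside the clade A list, read 5.43 and 4.47 under NaCl in GRX and 4.39 and 5.35 under NaCl in WT, against 2.58 and 2.55 in water in GRX and 2.65 and 2.36 in water in WT, with its 2 NaCl arrays about equally far apart in both lines. The remaining 3 were the EF-hand calcium-binding protein AT1G73630 (2.39 in GRX and 2.67 in WT), the RING-H2 protein AT5G17600 (2.68 in GRX and 2.26 in WT) and the PB1 domain protein AT5G63130 (2.27 in GRX and 2.67 in WT).

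Transporter families had 3 members. AT2G26690, NPF6.2 in RefSeq, belongs to the nitrate and peptide transporter family and read 7.44 and 7.56 under NaCl in GRX and 7.46 and 7.25 under NaCl in WT, against 4.78 and 5.12 in water in GRX and 4.52 and 4.95 in water in WT. A second gene of that family, AT3G53960, read 5.68 and 4.84 under NaCl in GRX and 5.12 and 5.52 under NaCl in WT, against 2.14 and 2.45 in water in GRX and 2.09 and 2.29 in water in WT. AT5G02170, of an amino acid transporter family, read 5.20 and 5.33 under NaCl in GRX and 5.43 and 5.45 under NaCl in WT, against 2.03 and 2.18 in water in GRX and 2.11 and 1.48 in water in WT. The salt responses were 2.55 ± 0.27 in GRX and 2.62 ± 0.27 in WT for AT2G26690 and 3.16 ± 0.23 in GRX and 3.64 ± 0.23 in WT for AT5G02170. The gene next to AT5G02170 on the chromosome, AT5G02180 (picked out after its values were seen), was higher under NaCl by 1.83 in GRX (limma, adjusted p 0.00593) and by 1.13 in WT (adjusted p 0.0760). Of 40 probe sets for genes adjacent to members, 5 passed as higher under NaCl in both lines, against 5.81% of all probe sets. Probe sets that passed as lower are not in this count. None of the 40 was itself a member, and their median NaCl minus water was 0.14 in GRX and 0.03 in WT.

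OsGRX8 is a CC-type glutaredoxin, and 2 Arabidopsis genes of this class were members. AT4G15660 read 4.23 and 4.88 under NaCl in GRX and 4.43 and 3.89 under NaCl in WT, against 2.05 and 2.40 in water in GRX and 1.72 and 2.10 in water in WT, and AT2G30540 read 6.40 and 6.27 under NaCl in GRX and 6.27 and 6.33 under NaCl in WT, against 3.36 and 3.64 in water in GRX and 3.28 and 3.96 in water in WT. The 8 MV and IAA arrays ran from 1.78 to 2.31 for AT4G15660 and from 2.92 to 3.73 for AT2G30540, and no MV or IAA array overlapped a NaCl array. AT4G15660 has close relatives next to it in the genome, with which its probes may share signal.

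Another 7 named members have no family role stated here. One of them, AT3G07310, read 8.33 and 8.32 under NaCl in GRX and 8.30 and 8.40 under NaCl in WT, against 5.72 and 5.87 in water in GRX and 5.69 and 6.15 in water in WT. AT5G07330 was near the floor without salt, with 4.83 and 3.72 under NaCl in GRX and 4.51 and 4.14 under NaCl in WT, against 1.65 and 1.36 in water in GRX and 1.26 and 1.32 in water in WT. The responses were 2.76 in GRX and 2.88 in WT for AT1G73390, 2.21 in GRX and 2.37 in WT for AT5G47060, 2.86 in GRX and 2.56 in WT for AT2G44230, 2.3 in GRX and 2.66 in WT for AT5G22390, and 2.04 in GRX and 2.10 in WT for AT3G24070. Members named above outside the stated rule for naming genes, 12 of the 34, were chosen after their values were seen.

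**Figure D2:**
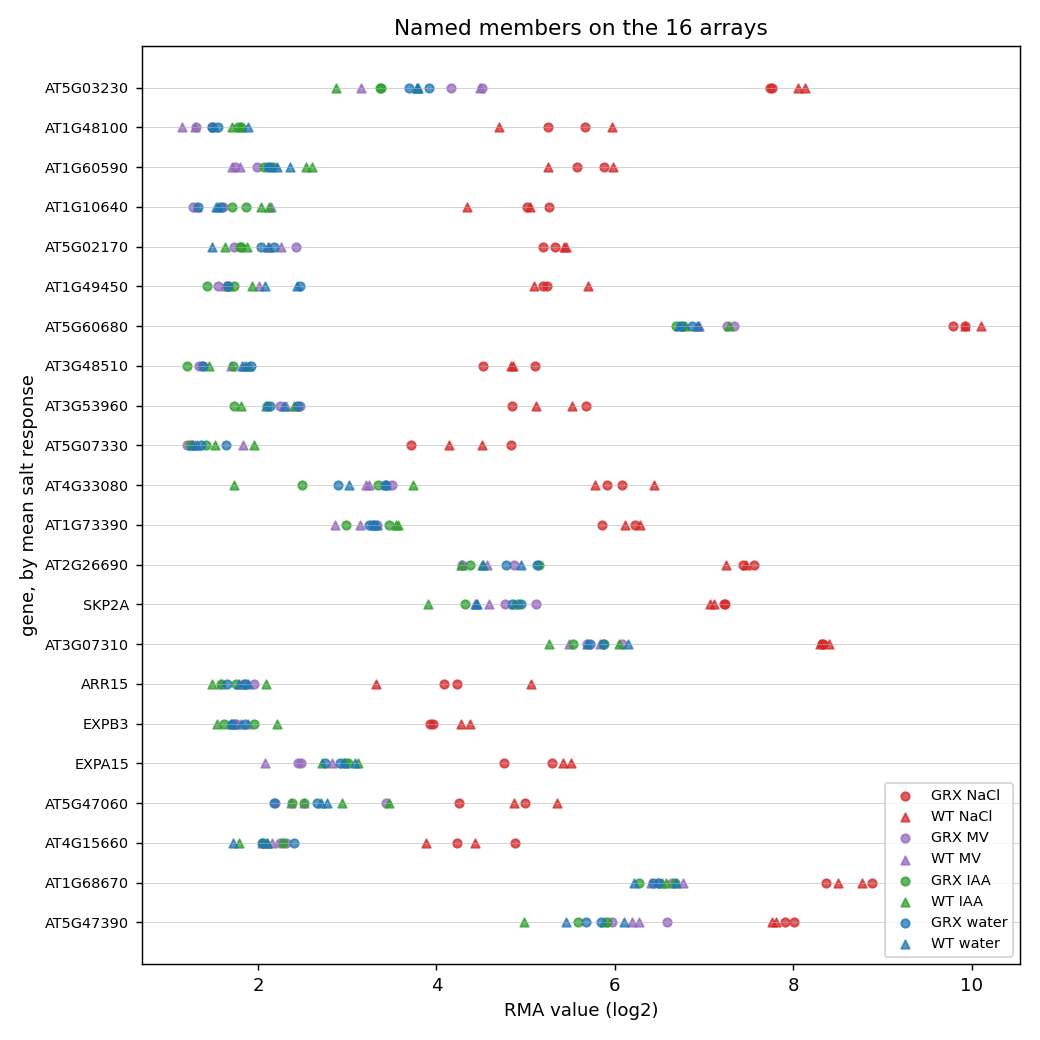
Deposited RMA values (log2) of the 22 genes named by rule on all 16 arrays, GRX as circles and WT as triangles, coloured by condition. In each gene the 4 red NaCl points lie to the right of the other 12.

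Under MV and IAA the members scattered around 0 within the window that chose them. MV minus water had a median of 0.05 in GRX and -0.03 in WT, and IAA minus water had a median of -0.03 in GRX and 0.05 in WT. In both lines alike, 27 members were higher and 22 lower under MV, and 25 were higher and 26 lower under IAA. A tighter window of 0.3 in both lines held 29 members for MV and 37 for IAA. AT5G22390, with IAA minus water of 0.57 in WT, and EXPA15 and AT5G17600, each with a largest size of 0.56, were just inside the window. The nearest 3 probe sets outside it, all unnamed, had largest sizes of 0.60, 0.61 and 0.62. At the salt threshold, AT5G47390 (2.2 in GRX, 2.01 in WT), AT3G24070 (2.04 and 2.10 in the same order) and AT5G50360 (2.35 and 2.08) were the named members closest to it. UGT76C1, a cytokinin glucosyltransferase gene, fell short with 2.10 in GRX and 1.97 in WT, as did AT1G78110 (2.10 and 1.91) and AT4G30470 (1.90 and 1.97).

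Salt responses of at least 2 in both lines with a level of at least 4 were found in 196 probe sets, of which the 72 members are 36.7%. MV kept 92 of the 196 (46.9%) inside its window in both lines, and IAA kept 138 (70.4%). MV was above the window in both lines in 59 (30.1%) and below it in 9 (4.59%), whereas IAA was above in 19 (9.69%) and below in 4 (2.04%). Median deposited values were 5.23 under NaCl and 2.32 in water for the members, against 6.21 under NaCl and 3.36 in water for the other 124. Median salt responses were close, 2.58 for the members against 2.75 for the other 124 in GRX, and 2.65 against 2.73 in WT. The largest responses belonged to the other 124, at 5.86 in GRX and 5.62 in WT. These are descriptions, since the same values drew the line between the groups.

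**Figure D3:**
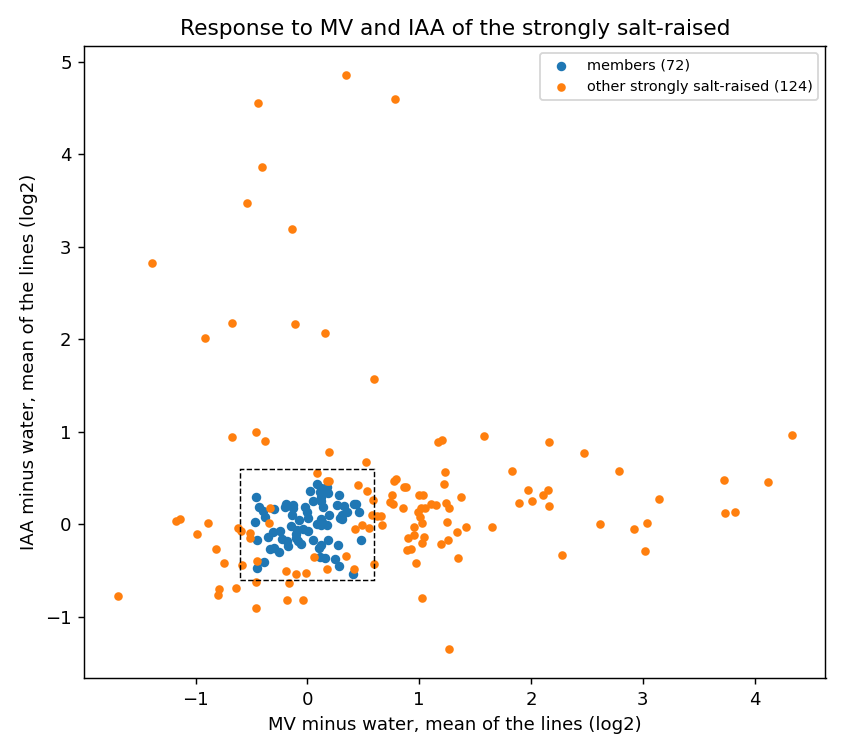
MV minus water (x axis) and IAA minus water (y axis), each the mean of both lines on the log2 scale, for the 72 members and the other 124 strongly salt-raised probe sets; the dashed square marks ±0.6. The members fill the square by construction, a larger share of the others lies to its right (MV) than above it (IAA), and some others fall inside it because only 1 line left the window.

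The rule was also applied to each line alone and the choice was read in the other line, since the lines share no array. The rule applied to WT arrays alone chose 98 probe sets. In GRX, which had no part in that choice, 97 of them (99.0%) were higher under NaCl (limma, adjusted p below 0.05), against 7.94% of all probe sets. Their median NaCl minus water was 2.38 in GRX, against 2.47 in WT where they were chosen, and 78 reached 2. The MV and IAA windows held 89 of the 98 in GRX, and 72 met the salt and window criteria there, with no minimum level asked of GRX alone. These 72 are the members, which the rule had already placed at 2 or more in GRX, so the counts are no separate support for them. The rule applied to GRX arrays alone chose 130, of which 129 (99.2%) were higher under NaCl in WT, against 7.61% of all probe sets. The median was 2.46 in WT, 105 of 130 reached 2, 84 stayed inside both windows, and 69 met the salt and window criteria. Those 69 are members too. The share of all probe sets inside both windows was not counted for either line, so nothing is read from the window counts. The test for MV minus water was passed in WT by 6 of these 130, against 4.33% of all probe sets. In GRX it was passed by 0 of the 98 chosen in WT, against 1.46% of all probe sets, and 10 of the 98 had an unadjusted p below 0.05, against 9.73%. In WT, 29 of the 130 chosen in GRX had an unadjusted p below 0.05 in that test. The share of all probe sets at that level in WT was not counted, so nothing is read from the 29.

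The probe set that missed the test in GRX, 251282_at, had 1.34 there (adjusted p 0.146). The one that missed it in WT was AT1G75960, with 2.01 in GRX and 0.94 in WT (adjusted p 0.0637). Both were chosen for mention after their values were seen. The spread of each probe set was pooled over all 8 groups in this fit. Membership varied with the arrays used. Leaving out each of the 16 arrays in turn gave between 54 and 82 probe sets, with 54 when the first WT water array was left out, and 21 of the 72 met the rule every time.

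**Figure D4:**
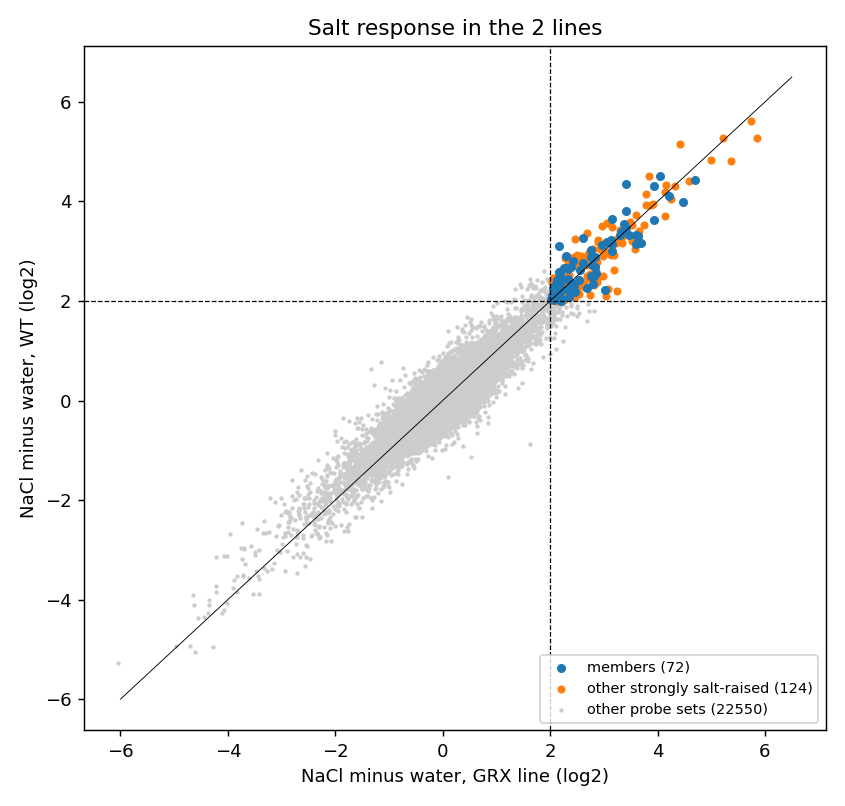
NaCl minus water in GRX (x axis) and in WT (y axis), log2 scale, for the 72 members, the other 124 strongly salt-raised probe sets and the remaining 22550; dashed lines mark 2 and the solid line marks equal responses. The members lie along the line of equal responses between 2 and 4.69, within the cloud of the other salt-raised probe sets.

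The rule sets no direct limit on the level of GRX against WT within a condition. It does keep MV and IAA near water in both lines. GRX minus WT under MV or IAA can therefore depart only so far from that in water, and these comparisons are not free of the selection. No member passed the test for GRX minus WT. GRX minus WT was tested under NaCl, MV and IAA, in water, and over the mean of the 4 conditions (limma, adjusted over all probe sets). In each of these 5 comparisons 0 of 72 members passed, as did 0% of all probe sets. Without the first WT IAA array, 2 of 72 members and 8.45% of all probe sets passed under IAA. At an unadjusted p below 0.05 the members' counts were 3 under NaCl, 1 under MV, 3 under IAA, 1 in water and 3 for the mean. The shares of all probe sets at that level were 4.48% under NaCl, 5.33% under MV, 7.32% under IAA, 1.12% in water and 5.85% for the mean. The lowest adjusted p of a member was 0.596, under MV. Medians of GRX minus WT over the members were -0.02 under NaCl, 0.10 under MV, -0.11 under IAA and 0.01 in water, against medians of 0.02, 0.02, -0.01 and 0.00 over all probe sets in the same order. The typical 95% interval reached 0.58 to either side of a difference in 1 condition and 0.29 for the mean of 4.

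The salt response of GRX minus that of WT is built from the values that chose the members, since both responses had to reach 2, and nothing is read from its size. It ran from -0.94 to 0.81 and was within 0.5 in 66 of 72 members. In the same fit 0 members and 0% of all probe sets passed for it, and 1 member and 2.16% of all probe sets had an unadjusted p below 0.05. The largest size belonged to AT2G47780, at -0.94 (95% interval -2.33 to 0.45). That interval spans differences in both directions. That 1 member was the unnamed 258139_at, at -0.93 (p 0.0125, adjusted p 1.0). It read 5.19 and 4.69 under NaCl in GRX and 5.45 and 5.87 in WT, against 1.48 and 1.56 in water in GRX and 1.32 and 1.28 in WT, so the 2 lines did not overlap under NaCl. Over the mean of the 4 conditions, the member with the lowest p was the unnamed 257280_at, which was lower in GRX, at -0.22 (p 0.0104, adjusted p 0.720). The other 2 with an unadjusted p below 0.05 had higher means in GRX. SKP2A was higher in GRX by 0.31 (95% interval 0.02 to 0.61, adjusted p 0.841) and AT4G15660 by 0.28 (0.01 to 0.55, adjusted p 0.853), neither past the threshold. AT5G47060 was lower in GRX by mean value, at -0.30 (-0.69 to 0.09, adjusted p 0.916).

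The 34 named members included none of the 124 genes of 9 lists of known salt and ABA pathways. The 38 unnamed members could not be compared with the lists, which could themselves be read only in small part. Their genes were measured by name in 8 cases, and 6 lists (ABA metabolism, ABA receptors, clade A PP2C phosphatases, SnRK kinases with bZIP factors, ion transport and drought transcription factors) had no gene measured by name. Of the 8, 3 were higher under NaCl in GRX and 2 in WT, against 7.94% and 7.61% of all probe sets. LEA4-5, an LEA protein gene, rose by 2.34 ± 0.38 in GRX (limma, adjusted p 0.00100) and by 2.74 ± 0.38 in WT (adjusted p 0.000370). It was no member, because MV minus water was 1.07 in GRX and 1.27 in WT and IAA minus water was 0.73 and 1.05. SWEET15, a sugar transporter gene, rose by 1.65 ± 0.44 in GRX (adjusted p 0.0224) and by 2.37 ± 0.44 in WT (adjusted p 0.00294), with MV minus water of -0.05 in GRX and 0.00 in WT, and missed the salt threshold in GRX. COR15B, a cold-regulated gene whose product enters the chloroplast, rose by 1.39 ± 0.41 in GRX (adjusted p 0.0384), and in WT NaCl minus water was 0.82 ± 0.41 (adjusted p 0.256).

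The other 5 did not pass in either line. NaCl minus water was 0.34 in GRX and 0.30 in WT for COR47, 0.18 and 0.13 for XERO2, 0.19 and -0.33 for COR15A, 0.70 and 0.79 for LEA4-1, and 0.17 and 0.12 for the wax gene WSD1. COR47 and XERO2 were at 9.67 or more on every NaCl and water array, whereas WSD1 lay near the floor. LEA4-1 was also near the floor in water, at 1.18 in GRX and in WT, and read 1.88 under NaCl in GRX and 1.98 in WT. Organ markers were also few, with 3 of 17 measured by name. The root endoplasmic reticulum body gene PYK10 averaged 9.27 under NaCl in GRX and 9.38 in WT, against 9.52 in water in GRX and 9.43 in WT. EXPA7, a root hair expansin, fell by 0.61 under NaCl in GRX (limma, adjusted p 0.0421) and by 0.66 in WT (adjusted p 0.0321), when 7.75% of all probe sets were lower in GRX and 6.51% in WT. Its values lay near the floor, averaging 1.51 under NaCl in GRX and 1.33 in WT, against 2.12 in water in GRX and 1.99 in WT. FAMA, a guard cell regulator, differed by 0.06 in GRX and 0.67 in WT (adjusted p 0.952 and 0.284). No seed marker was measured by name, and the part of organ makeup in the members' responses was not tested.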

How the data were processed

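The authors deposited 1 column of log2 values for each array, with 1 value per probe set. RMA (robust multi-array average) is the method that the submitters' processing notes name, with no version. The software and the definition file of the probe sets were not given in the sources used here. As usually run, RMA brings arrays to a common distribution, and its fold changes for dim probe sets tend to be too small. No further normalization was applied. The table holds 22810 probe sets, of which 64 Affymetrix controls were left out. Genes were named from the platform annotation. It gave 1 gene for 13513 probe sets, several for 503 and none for 8730, and 13436 of the first matched RefSeq (TAIR10.1) by gene identifier. Coordinates are not printed, since no build is named for the probe sets.

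A model with 1 mean for each of 8 groups was fitted to all 16 arrays (2 a group) with limma 3.58.1 in R 4.3.3 (8 residual and 4.52 prior degrees of freedom), with two-sided tests and Benjamini-Hochberg adjustment over 22746 probe sets at 0.05. The script was tested on simulated data. Arrays were grouped by their labels, which name no batch. The number of arrays, 2 a group, limits precision. Each p-value sets a difference of group means against the spread between replicate arrays of these samples. In this fit that spread is pooled over the 8 groups and moderated by the prior.

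The members and the gene lists were chosen with earlier results of these data known. Genes were named when a probe set had 1 gene and the gene had a symbol, was among the 12 largest mean salt responses, the 6 highest levels under NaCl or the 4 largest GRX minus WT differences, or was in a list; 22 members met this. A further part of that rule, by protein family name in the annotation, could not be applied, because the annotation holds no such names. Alternatives were other normalizations, thresholds, weights, a filter on low values, a replicate block and leaving out arrays.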

Additional observations from a re-analysis of the deposited data

How the results depend on the processing

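The number of members depends on the thresholds. It was 169 with a salt threshold of 1.5 (all 72 among them) and 33 with 2.5, 34 with a window of 0.4 and 113 with 1.0, and 24 with a minimum level of 6, against 72 as reported. Repeated quantile normalization and median centring each gave 73, of which 68 were shared with the 72, and no minimum level gave 79. Leaving out 1 array at a time gave 54 to 82 members, and 50 to 71 of the 72 were kept. With the filter on low values, which 33 of the 72 members passed, 50 of 51 probe sets chosen in WT were called higher under NaCl in GRX, and 77 of 77 chosen in GRX were called in WT. The share of all filtered probe sets called is not given, so nothing is read from these counts. Leaving out 1 array changed how many probe sets were chosen in each line, so the counts called there are not compared. GRX minus WT called 0 members in all other alternatives and comparisons, but 0 to 2 under IAA when 1 array was left out: without the first WT IAA array, 2 of 72 members and 8.45% of all probe sets passed, which leaves the WT array with the highest actin ratio; the cause was not tested. The lone array is assumed to vary like the other groups.

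Correlations of deviations between same-numbered arrays of different groups ran from -0.108 to 0.363. Since not every pair was over 0.1, the numbers were not taken to pair the arrays, although 3 of the 6 pairs of GRX groups, 5 of the 6 pairs of WT groups and the pair of IAA groups were over it. A fit with it as a replicate block called 97 and 129 in the other line, as without it, and 0 members for GRX minus WT. All 1078 recomputed values of the 22 genes named by rule kept their direction and their side of the threshold for the adjusted p. These genes were chosen for large salt responses, which largely fixes such a result, so nothing is read from the count. It does not concern the rule for members, which 21 of the 72 met whichever array was left out. Leaving out the second IAA array of both lines in the line comparisons, and leaving out all 4 IAA arrays, were chosen after seeing the data, and called 0 members.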
